A study of Mus musculus with 4 samples.

Results

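The genes described here code for alternative subunits of the SWI/SNF (BAF) chromatin remodelling complex. They are the ATPase genes Smarca4 (Brg1) and Smarca2 (Brm), the Baf60 genes Smarcd1, Smarcd2 and Smarcd3 (Baf60a, Baf60b and Baf60c), the Baf45 genes Dpf1, Dpf2 and Dpf3, and the Arid1 genes Arid1a and Arid1b. Members were taken by gene symbol, 10 of the 20701 symbols in the table, and for each the transcript entry with the highest summed count over the 4 libraries was kept. All 10 passed the low-count filter, and each had at least 50 counts in every library.

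RNA-Seq was performed on cardiac progenitor cells (CPCs) that had been obtained from mouse E14 Tg(Nkx2-5-EmGFP) embryonic stem cells, in which EmGFP fluorescence reports the activity of the cardiac gene Nkx2-5. GFP-positive cells were sorted at day 5 of differentiation, so every library comes from cells selected for reporter activity. There were 2 control libraries and 2 Isl1-/- libraries, the latter called Isl1_KO, each from a different clone made by CRISPR/Cas9 targeting of Isl1, a LIM-homeodomain transcription factor gene of the second heart field. The sample labels give a knockout, whereas the design text speaks of a knockdown, and the labels were followed. The comparison asks whether the balance between alternative subunits differed in progenitors that lack Isl1. Each group stands on 2 clones, so a difference between the groups cannot be told apart from a difference between these clones.

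SWI/SNF complexes are ATP-driven machines that move nucleosomes along DNA or eject them, which changes how accessible promoters and enhancers are. Each complex holds 1 ATPase, either Brg1 or Brm, together with shared core subunits and a choice of paralogous accessory subunits, and the make-up of the complex changes as cells differentiate. In the heart, Baf60c links the complex to DNA-binding cardiac factors, among them Gata4, Tbx5 and Nkx2-5, and Dpf3 (Baf45c), whose PHD fingers read modified histones, is active in heart and somite development.

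The totals over the kept entries were 8821536 and 9147419 counts in the control and 13186103 and 11388326 counts in the Isl1_KO libraries. The Isl1 transcript was counted 309 and 326 times in control and 17 and 24 times in Isl1_KO, so each library matched its label. The control libraries differed from each other little more than counting error allows (chi-square per degree of freedom 1.13), whereas the Isl1_KO libraries differed far more (17.7). Of 10 cardiac progenitor markers 6 were called lower in Isl1_KO, beside 1.94% of all genes. Isl1, whose fall the targeting fixed, is among them. The summed level of the 10 was 2062 and 2077 CPM (counts scaled to a common library size) in control and 1648 and 1310 CPM in Isl1_KO. Hand1 made up the largest part (839 and 848 CPM in control, 1122 and 871 CPM in Isl1_KO) and was not called. It was higher in both Isl1_KO libraries, whereas the other cardiac markers were lower in both, so the sum understates their fall. The summed level of 5 blood markers was 406, 415, 239 and 84.3 CPM in control 1, control 2, Isl1_KO 1 and Isl1_KO 2, that of 5 endothelial markers 161, 164, 147 and 94.4 CPM, and that of 5 endoderm markers 55.4, 54.9, 53.3 and 28.2 CPM. Members of these lists did not move alike: the globin genes Hbb-bh1 (284, 293, 160 and 42.0 CPM) and Hba-x (98.3, 97.7, 40.6 and 3.64 CPM) made up most of the blood sum, whereas Gata1 (9.08, 8.10, 14.5 and 16.4 CPM) and Itga2b (11.4, 11.7, 20.1 and 18.7 CPM) were higher in both Isl1_KO libraries without passing the test. The endothelial marker Pecam1 (53.9, 56.6, 74.9 and 57.0 CPM) was also higher in both. The other endothelial markers, Cdh5, Tek, Tie1 and Emcn, were lower in both. The sum of 5 pluripotency markers was 31.0, 32.7, 26.0 and 49.5 CPM, and that of 7 neuron markers 69.9, 66.5, 59.3 and 69.5 CPM. In every library the neuron sum was above the endoderm sum. No marker of these lists was at 0 in all libraries, and 0 markers outside the cardiac list were called. In such bulk libraries, fewer cells of a type and less RNA per cell cannot be told apart.

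Among the 10 genes, Smarcd3 was the 1 gene called different, and it was lower in Isl1_KO. The other Baf60 genes, Smarcd1 and Smarcd2, were not called, and the share of Smarcd3 in the Baf60 transcripts went from 28.8% ± 0.859 in control to 13.9% ± 2.47 in Isl1_KO (SD, n = 2 each). Smarca2 was also lower in both Isl1_KO libraries but did not pass the adjusted threshold, and Smarca4, Dpf2, Arid1a and Arid1b differed between the groups by less than 0.1 on the log2 scale. The single call among 10 genes stands beside a background of 2.45% of 12715 genes called by the same test (edgeR quasi-likelihood, adjusted p under 0.05), 1.94% lower and 0.511% higher.

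Levels of different genes were compared per length, as CPM per kilobase of the kept transcript. In control the order from the highest to the lowest mean was Smarca4 (99.6 ± 1.72), Arid1a (59.9 ± 0.926), Smarcd1 (57.6 ± 1.90), Smarcd3 (31.4 ± 1.63), Dpf2 (26.0 ± 0.149), Smarca2 (23.9 ± 0.469), Smarcd2 (20.2 ± 1.13), Arid1b (11.0 ± 0.308), Dpf1 (4.04 ± 0.105) and Dpf3 (1.90 ± 0.126; CPM per kilobase, SD, n = 2). The control libraries held this order without overlap between neighbours, although the lower Arid1a value (59.2) lay close to the higher Smarcd1 value (58.9). The level of Dpf3 rests on its kept length of 3142 bases. Its entries of 1505 and 1502 bases had the same control counts and would give a higher level. By these lengths its control mean would still lie below that of Dpf1, but the control values of both genes would overlap. Its Isl1_KO mean would then lie above that of Dpf1. In Isl1_KO the mean levels ran Smarca4 (102 ± 2.69), Smarcd1 (63.7 ± 3.48), Arid1a (62.2 ± 1.46), Dpf2 (26.4 ± 1.63), Smarcd2 (23.1 ± 2.36), Smarca2 (15.8 ± 4.89), Smarcd3 (14.1 ± 3.08), Arid1b (10.5 ± 0.534), Dpf1 (4.57 ± 0.0347) and Dpf3 (2.62 ± 0.242). Smarcd3 thus stood in the fourth place in control and in the seventh in Isl1_KO. There the values of Smarcd1 and Arid1a overlapped, as did those of Smarca2 and Smarcd3.

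**Figure D1:**
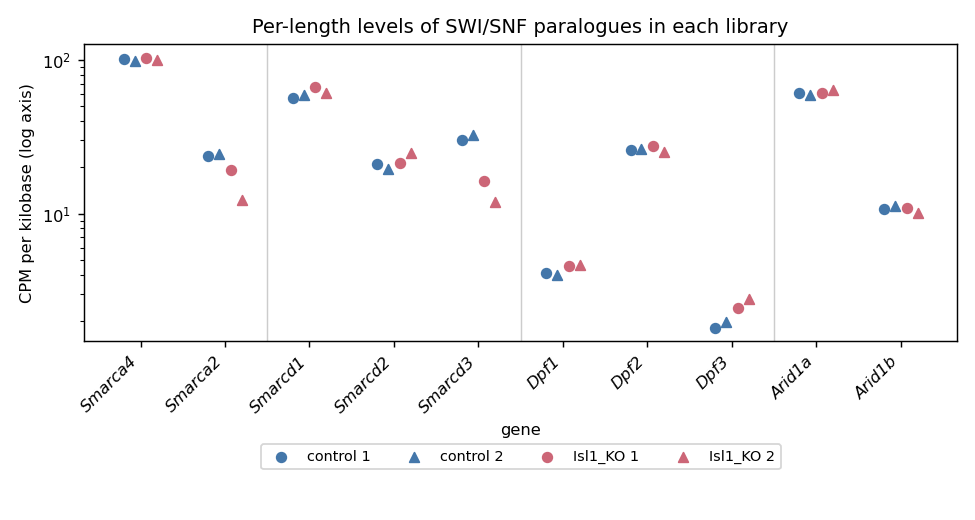
Level of the 10 SWI/SNF genes in each library, in CPM per kilobase of the kept transcript on a log axis; blue marks are control, red marks Isl1_KO, circles replicate 1 and triangles replicate 2. Smarcd3 lies at 30.3 and 32.6 in control and at 16.3 and 11.9 in Isl1_KO, while the 4 marks of Smarca4, Dpf2, Arid1a and Arid1b lie close together.

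Smarcd3 was the 1 gene called, so the sequence before the transcription starts of the Baf60 genes is shown. Each stretch is the 250 bases before the start that RefSeq gives (table build GRCm38.p6), 5′ to 3′ on the strand of the gene, placed on NCBIM37, the assembly of mm9, by an exact match. Capitals mark matches to TAAT, the core recognised by many homeodomain proteins, or GATA, the core of GATA factors, on either strand (ATTA and TATC are the same cores on the other strand). The Smarcd3 stretch is chr5:24107821-24108070 (minus strand), that of Smarcd2 is chr11:106128947-106129196 (minus strand) and that of Smarcd1 is chr15:99532468-99532717 (plus strand).
Smarcd3: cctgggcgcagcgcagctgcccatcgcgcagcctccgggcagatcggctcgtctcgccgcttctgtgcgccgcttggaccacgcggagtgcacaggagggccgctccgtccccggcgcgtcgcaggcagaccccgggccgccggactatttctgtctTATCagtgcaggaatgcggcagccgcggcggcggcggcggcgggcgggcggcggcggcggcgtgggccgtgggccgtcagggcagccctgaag
Smarcd2: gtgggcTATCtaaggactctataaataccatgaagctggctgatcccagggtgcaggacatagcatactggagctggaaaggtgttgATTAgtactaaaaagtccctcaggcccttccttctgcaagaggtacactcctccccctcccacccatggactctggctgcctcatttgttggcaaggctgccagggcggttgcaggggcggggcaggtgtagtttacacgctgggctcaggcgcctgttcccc
Smarcd1: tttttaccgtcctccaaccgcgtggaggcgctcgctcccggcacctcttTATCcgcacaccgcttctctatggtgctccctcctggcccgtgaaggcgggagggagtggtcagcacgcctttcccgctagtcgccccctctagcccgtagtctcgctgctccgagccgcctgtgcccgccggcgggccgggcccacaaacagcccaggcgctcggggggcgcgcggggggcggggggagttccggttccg
Smarcd3 and Smarcd1 had GC-rich stretches, with 76.0% and 71.2% G or C and 38 and 29 CpG dinucleotides, whereas Smarcd2 had 56.4% and 4. The median over 32851 RefSeq promoter stretches of this length was 52.4% with 6 CpG. The Smarcd2 stretch lies before a RefSeq start inside the gene as GENCODE places it (chr11:106124493-106134286), while those of Smarcd3 and Smarcd1 lie at the outer start, so the stretches are not of the same kind. A TAAT match was present in Smarcd2 (starting at -163) and in neither Smarcd3 nor Smarcd1, against 54.9% of all stretches with a match. Each of the Baf60 stretches held 1 GATA match, at -93 in Smarcd3, -244 in Smarcd2 and -201 in Smarcd1, and 53.6% of all stretches hold at least 1. These matches describe the letters of the windows and are not evidence of binding.

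Smarcd3 (NM_025891, chr5:24096636-24107830 on NCBIM37, minus strand) codes for Baf60c. It had 456 and 509 counts in the control and 362 and 235 counts in the Isl1_KO libraries, or 51.8, 55.7, 27.8 and 20.4 CPM. Both Isl1_KO libraries lay far below both control libraries, and Isl1_KO 2 was the lower of its pair. The control mean of 53.7 ± 2.78 CPM compared with an Isl1_KO mean of 24.1 ± 5.26 CPM (SD, n = 2), 0.450-fold, which on the log2 scale is a change of -1.15 (SE 0.167, adjusted p = 0.0410 by edgeR). The DESeq2 Wald test gave the same size of change with an adjusted p of 1.5e-05. The call rests on having both control libraries: without control 1 or control 2 the log2 fold change was -1.21 or -1.10 and the adjusted p 0.361 or 0.373, with 28 and 32 genes called in all. The study took up Smarcd3 with these libraries among its evidence, so its call here is not independent evidence.

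Smarcd3 was represented by 1 entry of 1710 bases, so other transcripts of the gene were not measured separately. On the fit over all 21072 transcript entries tested, of which 2.2% were called, this entry had a log2 fold change of -1.15 (edgeR adjusted p = 0.0460). Reads had been counted on both strands, and Smarcd3 overlaps the opposite-strand gene Chpf2, a chondroitin-polymerising factor gene. The GENCODE transcript closest in length to the entry (1735 bases) shares 642 bases with 1 of 4 Chpf2 transcripts and none with the other 3. Chpf2 had 302, 298, 399 and 224 counts in control 1, control 2, Isl1_KO 1 and Isl1_KO 2, and its change on the log2 scale was -0.41 (SE 0.225, adjusted p = 0.334 by edgeR), so the part of any shared reads in the Smarcd3 value was not tested.

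Smarcd1 (Baf60a), the most abundant Baf60 gene, had 176 and 185 CPM in control and 208 and 192 CPM in Isl1_KO. Smarcd2 (Baf60b) had 57.6 and 53.2 CPM in control and 58.8 and 67.9 CPM in Isl1_KO. For both genes the Isl1_KO libraries lay above the control libraries by a small margin. The log2 fold changes were 0.15 for Smarcd1 (SE 0.0729, adjusted p = 0.299) and 0.19 for Smarcd2 (SE 0.104, adjusted p = 0.329), and neither passed the edgeR test. The gene model Gm17349 overlaps Smarcd1 by 183 bases on the opposite strand.

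Per length, Smarcd3 had 28.2% and 29.4% of the Baf60 level in control and 15.7% and 12.2% in Isl1_KO. Smarcd1 had 52.3% and 53.1% in control and 63.7% and 62.5% in Isl1_KO, and Smarcd2 19.5% and 17.5% against 20.7% and 25.3%. Smarcd3 was the second Baf60 gene in both control libraries and the last in both Isl1_KO libraries, where Smarcd2 was second. This order in control holds per length alone: without division by length Smarcd3 had 18.1% and 19.0% and Smarcd2 20.1% and 18.1% of the Baf60 counts there. The share of Smarcd3 differed by -14.9 percentage points, and without division by length, by -10.2 points. These shares rest on the same Smarcd3 counts as its fold change and are not a further line of evidence.

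**Figure D2:**
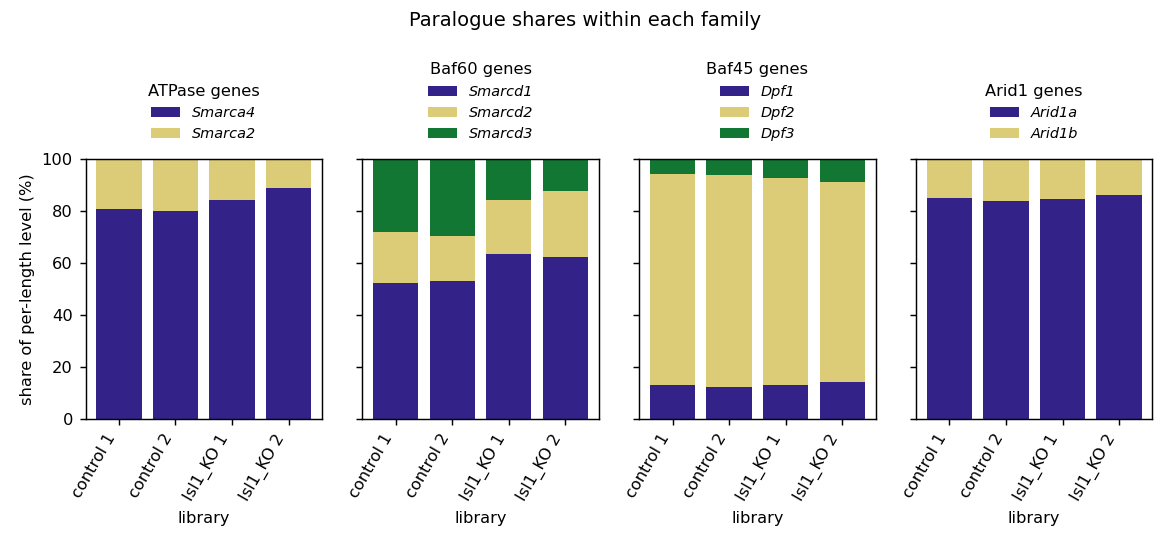
Share of each paralogue in the summed per-length level of its family in each library (%), 1 stacked bar per library for the ATPase, Baf60, Baf45 and Arid1 genes. The Smarcd3 band takes 28.2% and 29.4% of the Baf60 bars in control and 15.7% and 12.2% in Isl1_KO, and the Smarca2 band 19.0% and 19.8% against 15.7% and 11.0%.

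The paralogue ratio was compared between the groups with limma for 6 pairs, with p-values adjusted over 12714 genes set against the same reference gene. Errors of the 2 genes were moderated separately and added, which leaves out how they deviate together within a library. The log2 ratio of Smarcd3 to Smarcd1 counts was -1.77 and -1.73 in control and -2.90 and -3.23 in Isl1_KO. It was lower in both Isl1_KO libraries, by 1.32 on average (change -1.32, SE 0.181, 95% interval -1.74 to -0.89, adjusted p = 0.0111), and 5.93% of genes passed against this reference. The log2 ratio of Smarcd3 to Smarcd2 was -0.15 and 0.07 in control and -1.08 and -1.73 in Isl1_KO. Its change was -1.36 (SE 0.196, 95% interval -1.81 to -0.91, adjusted p = 0.00725), with 5.36% of genes passing. Smarcd3 and Smarcd2 moved in opposite directions between the Isl1_KO libraries (SD of the ratio 0.463), so this SE and interval can be too narrow. With the errors of the 2 genes moderated jointly, as the test was first designed, the adjusted p was 0.0325 for the ratio to Smarcd1 and 0.0697 for that to Smarcd2, which then missed the threshold. Without control 1 or control 2 neither ratio passed (adjusted p 0.235 and 0.224 to Smarcd1, 0.142 and 0.279 to Smarcd2). An exact permutation test of 2 against 2 libraries cannot give a two-sided p under 0.333, and 5 of the 6 ratios reached that value.

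Smarca4 (chr9:21420613-21508674, plus strand) codes for Brg1, the ATPase of the complexes studied in the heart. It had 639 and 624 CPM in control and 656 and 632 CPM in Isl1_KO, so the groups overlapped. The change on the log2 scale was 0.03 (SE 0.0655, adjusted p = 0.829 by edgeR), and its other 2 entries, which differ from the kept one by at most 2 counts in a library, gave 0.04 in the fit over all entries.

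Smarca2 (chr19:26679650-26852811, plus strand) codes for Brm, the alternative ATPase. It had 136 and 140 CPM in control and 111 and 71.1 CPM in Isl1_KO. Both Isl1_KO libraries lay below control, and Isl1_KO 2 lay well below Isl1_KO 1. The control mean of 138 ± 2.71 CPM compared with 91.0 ± 28.2 CPM for Isl1_KO, a log2 fold change of -0.60 (SE 0.207, unadjusted p = 0.0320 and adjusted p = 0.179, both by edgeR). An unadjusted p under 0.05 was found for 23.2% of all genes. The criteria of the study, a change over 1.5-fold with an unadjusted p under 0.05 in DESeq2, were passed by Smarca2 (DESeq2 adjusted p = 0.0936) and Smarcd3 among the 10 genes, against 5.89% of 16855 genes. The size of the change was set by which Isl1_KO library was kept: -0.32 without Isl1_KO 2 and -0.96 without Isl1_KO 1. Isl1_KO 2, the library with least Smarca2, also had the lowest summed blood, endothelial and endoderm markers and the highest summed pluripotency markers. Single markers did not all follow: Gata1 was at 14.5 and 16.4 CPM and Sox17 at 10.3 and 11.5 CPM in Isl1_KO 1 and 2. Pecam1, at 57.0 CPM in Isl1_KO 2, was above both control libraries there, whereas the other endothelial markers were below them. The part of such cells in the Smarca2 value was not tested.

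The log2 ratio of Smarca2 to Smarca4 was -2.23 and -2.15 in control and -2.56 and -3.15 in Isl1_KO, with no overlap. The change was -0.67 (SE 0.219, 95% interval -1.20 to -0.13, limma adjusted p = 0.165), which did not pass, beside 3.68% of genes called against Smarca4. Per length, Smarca2 made up 19.4% ± 0.575 of the ATPase level in control and 13.3% ± 3.30 in Isl1_KO.

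Smarca2 is the member with entries of very different length, 1 of 5778 bases and 2 of 1951 bases with identical counts. Counts of the short entries were 547 and 551 in control and 619 and 411 in Isl1_KO, and the long entry 1202, 1282, 1444 and 819. Short entries had 31.8 and 30.9 CPM per kilobase in control and 24.4 and 18.3 in Isl1_KO. The counts of the long entry beyond those of the short one had 19.4 and 20.9 CPM per kilobase in control and 16.6 and 9.25 in Isl1_KO. Coverage per length was thus higher over the short entry in all 4 libraries, and both readings were lower in Isl1_KO. In the fit over all entries the log2 fold changes were -0.55 for a short entry (SE 0.151, edgeR adjusted p = 0.134) and -0.59 for the long one (SE 0.207, adjusted p = 0.189). The subtraction takes all bases of the short entry as part of the long one, and reads on any exon of its own would make the second value too low.

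**Figure D3:**
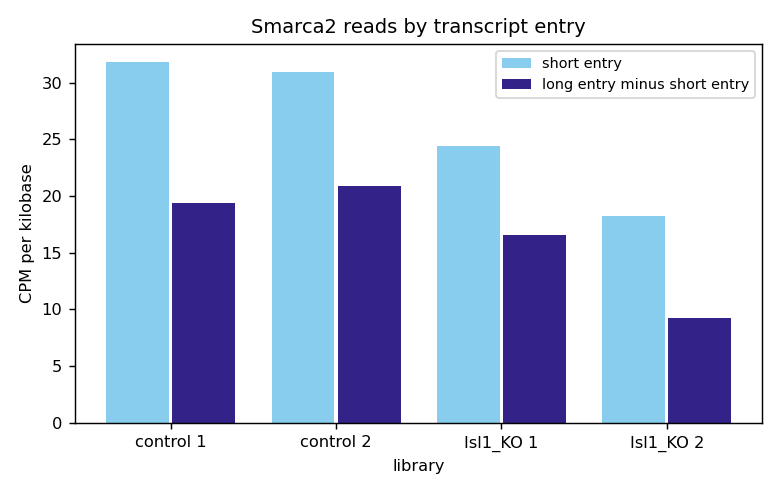
Coverage of Smarca2 in CPM per kilobase in each library, from the short entry (light bars) and from the counts of the long entry minus those of the short one (dark bars). The short entry is at 31.8, 30.9, 24.4 and 18.3 and the remainder at 19.4, 20.9, 16.6 and 9.25 in control 1, control 2, Isl1_KO 1 and Isl1_KO 2.

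Of the Baf45 genes, Dpf2 (Baf45d), the form found in most tissues, was the most abundant. It had 86.6 and 87.3 CPM in control and 91.9 and 84.2 CPM in Isl1_KO, and the groups overlapped (log2 fold change 0.02, SE 0.0747, adjusted p = 0.904 by edgeR). Dpf1 (Baf45b), best known from neurons, had 9.31 and 8.97 CPM in control and 10.3 and 10.4 CPM in Isl1_KO. Its Isl1_KO libraries lay just above control, with a log2 fold change of 0.18 (SE 0.150, adjusted p = 0.512). Phf10 (Baf45a), the remaining Baf45 paralogue, which was listed among other subunits, had a log2 fold change of 0.17 (SE 0.0683, adjusted p = 0.216).

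Dpf3 (Baf45c, NM_001267625) was the scarcest of the 10 genes, with 50 and 57 counts in control and 100 and 101 in Isl1_KO, or 5.68, 6.24, 7.69 and 8.76 CPM. Both Isl1_KO libraries lay above both control libraries. The control mean of 5.96 ± 0.397 CPM compared with 8.22 ± 0.761 CPM for Isl1_KO. The log2 fold change of 0.46 (SE 0.185, adjusted p = 0.220 by edgeR) was the most positive of the 10 and was not called. Its 3 entries had nearly the same counts. The genes around Dpf3 on chromosome 12 moved in the same direction: the 20 tested genes on each side (80275324 to 85872483 on NCBIM37) had a median log2 fold change of 0.39, with 32 of 40 positive, 6 called higher and 0 called lower. The median was 0.36 in Isl1_KO 1 and 0.40 in Isl1_KO 2, and Dpf3 differed from it by 0.07. Of 11649 genes with 20 placed neighbours on each side, 0.704% had a neighbourhood median at least as high. Neighbourhoods overlap, so those of genes beside Dpf3 can be among these. The members had been chosen with earlier results of these data known, so this percentage is a description without a test. What this stretch has to do with the Dpf3 value was not tested.

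The neighbourhoods of the other 9 genes had medians between -0.11 and 0.11. Around Smarcd3 the median was 0.0024 with 21 of 40 genes positive, so Smarcd3 lay 1.16 below its neighbours, of which 2 were called lower (Klhl7 and Shh, named here after their values were seen). Around Smarca2 the median was -0.11 with 13 of 40 positive and 3 called lower, and Smarca2 lay 0.49 below it.

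**Figure D4:**
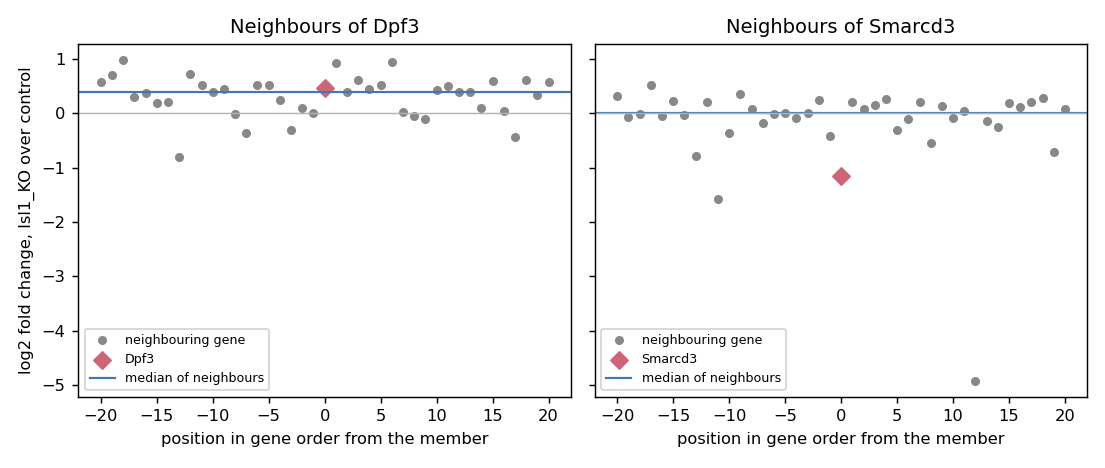
Log2 fold change (Isl1_KO over control) of the 20 tested genes on each side of Dpf3 (left) and Smarcd3 (right) by position in gene order, with the gene itself as a red diamond and the median of its neighbours as a blue line. Dpf3 (0.46) lies near the median of its neighbours (0.39), and Smarcd3 (-1.15) lies below that of its own (0.0024).

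The balance of the Baf45 genes was not called different. The log2 ratio of Dpf3 to Dpf2 was -3.91 and -3.79 in control and -3.56 and -3.25 in Isl1_KO (change 0.44, SE 0.198, 95% interval -0.03 to 0.91, limma adjusted p = 0.278), and that of Dpf1 to Dpf2 changed by 0.16 (SE 0.167, 95% interval -0.23 to 0.55, adjusted p = 0.643), beside 3.48% of genes called against Dpf2. Both intervals include 0 and reach further above 0 than below it. Per length, Dpf2 took 81.4% and 81.5% of the Baf45 level in control and 79.7% and 77.3% in Isl1_KO. Dpf3 took 5.67% and 6.19% against 7.09% and 8.56%. These shares rest on the kept Dpf3 length of 3142 bases. Its entries of 1505 and 1502 bases had nearly the same counts and would give Dpf3 a larger share.

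Arid1a (Baf250a) and Arid1b (Baf250b) are large DNA-binding subunits that exclude each other from a complex. Arid1a had 493 and 483 CPM in control and 498 and 515 CPM in Isl1_KO, just above control (log2 fold change 0.05, SE 0.0645, edgeR adjusted p = 0.652). Arid1b had 121 and 126 CPM in control and 123 and 115 CPM in Isl1_KO, and the groups overlapped (log2 fold change -0.06, SE 0.0708, adjusted p = 0.660). The ratio of Arid1b to Arid1a changed by -0.11 (SE 0.0947, 95% interval -0.32 to 0.10, limma adjusted p = 0.518, exact permutation p = 0.667), beside 4.05% of genes called against Arid1a. Arid1a held between 84.1% and 86.2% of the Arid1 level per length in all 4 libraries.

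Over the 10 genes, 7 had a positive and 3 a negative log2 fold change, with a median of 0.04 beside -0.0025 over all genes. The groups did not overlap for 7 of them, 5 above (29.2% of all genes) and 2 below (29%), beside 58.1% of all genes in either direction. Of 21 other SWI/SNF subunit genes 19 were tested. By edgeR or DESeq2 0 were called (3 at an unadjusted edgeR p under 0.05, beside 23.2% of all genes). Their median was 0.06, from Ss18l1 (-0.36, SE 0.155, adjusted p = 0.247), a paralogue of Ss18, to Bcl11b (2.00, SE 0.779, adjusted p = 0.212), a zinc finger gene with 15 and 11 counts in control and 30 and 109 in Isl1_KO. Actl6b, the neuronal actin-like subunit, had 0 counts in every library, which allows up to 0.341, 0.328, 0.231 and 0.260 CPM.

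Of 22 other remodelling ATPase genes 0 were called by edgeR, with a median of -0.01. An unadjusted edgeR p under 0.05 was found for 4 of them, beside 23.2% of all genes. Ercc6l, an ATPase of mitotic chromosomes, had the highest log2 fold change (0.59, SE 0.111, edgeR adjusted p = 0.0707) and was called by DESeq2 (adjusted p = 0.0307). Smarca1 (Snf2l), an ISWI ATPase, had the lowest. Its counts were 1405 and 1438 in control and 1726 and 862 in Isl1_KO, or 158 ± 1.51 and 104 ± 40.9 CPM (log2 fold change -0.61, SE 0.261, adjusted p = 0.241). As for Smarca2, its value in Isl1_KO 2 was the lowest of the 4 libraries.

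**Figure D5:**
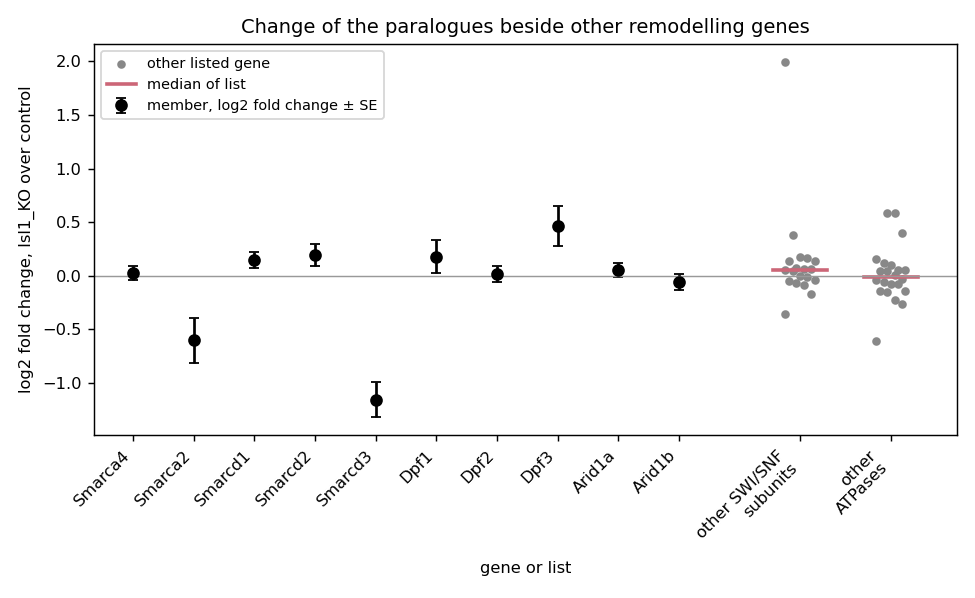
Log2 fold change (Isl1_KO over control) of the 10 genes with its SE (black), beside 19 other SWI/SNF subunit genes and 22 other remodelling ATPase genes (grey points, red line at the median). Smarcd3 (-1.15) lies below every other point, Smarca2 (-0.60) beside the lowest ATPase gene (-0.61), and the medians of the lists are 0.06 and -0.01.

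The cardiac factors that Baf60c is known to connect to the complex were measured in the same libraries. Counts of Tbx5 were 114 and 123 in control and 13 and 13 in Isl1_KO, a log2 fold change of -3.62 (edgeR adjusted p = 0.00374). Nkx2-5, whose reporter was used for the sort, gave 186 and 181 reads in control against 62 and 50 in Isl1_KO, a log2 fold change of -2.16 (adjusted p = 0.00687). Gata4 had 111 CPM in control and 78.7 CPM in Isl1_KO (-0.49, adjusted p = 0.109) and was not called. Smarcd3 and its partners Tbx5 and Nkx2-5 were thus called lower in the same libraries. Its partner Gata4 was lower in both Isl1_KO libraries without being called, while Smarca4 overlapped between the groups and was not called. Bulk libraries cannot show whether these levels fell in the same cells, and a joint change was not tested.

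The 3 genes whose profile lay closest to that of Smarcd3, by Euclidean distance of log2 CPM over the 4 libraries with each gene centred on its control mean, among 10762 genes, were Ppm1k (distance 0.0384), a mitochondrial phosphatase gene, Dact1 (0.0937), a Wnt signalling modulator gene, and Prrx2 (0.0972), a mesenchymal homeobox gene. Their log2 fold changes were -1.19 for Ppm1k (edgeR adjusted p = 0.0871), -1.18 for Dact1 (adjusted p = 0.0466) and -1.11 for Prrx2 (adjusted p = 0.0626). With 4 libraries the distance is a description without a test.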

How the data were processed

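RNA-Seq libraries were mapped by the authors to mm9 with STAR (introns of 20 to 500000 bases), and exonic reads per RefSeq transcript were counted with HOMER on both strands. Counts were deposited as whole reads for every transcript entry, and entries of 1 gene share reads. The authors deposited RPKM values, made with edgeR, and columns of their own DESeq2 comparison: log2 fold changes and their standard errors, p-values and adjusted p-values, the Wald statistic (a score) and the mean normalised count (a signal). None of these was used. Tool versions are not given in the sources used here. Columns of per-sample values not matched to a sample numbered 0.

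Each of 20701 symbols among 31507 entries was represented by its entry with most counts over the libraries (57.0% of all counts). Totals were 8821536, 9147419, 13186103 and 11388326, and a floor of 3 counts covers counting error only. Groups were compared in R 4.3.3 with edgeR 4.0.16 (quasi-likelihood F test, TMM, filterByExpr, no covariate, two-sided, Benjamini-Hochberg over 12715 genes, threshold 0.05). CPM used effective library sizes. Ratios were compared with limma 3.58.1 on log2 CPM (prior count 1). In the test as first designed the errors of both genes were moderated jointly, which made too many false calls on simulated data. Whether it does so on these data was not tested. For both Smarcd3 ratios the first design gave the larger limma adjusted p (0.0325 against 0.0111 to Smarcd1, 0.0697 against 0.00725 to Smarcd2). For Dpf1 to Dpf2 and Dpf3 to Dpf2 it gave the smaller one. After the data had been seen the first design was replaced by errors moderated separately for each gene and added. The first design is given beside the replacement for the Smarcd3 ratios. DESeq2 1.42.0 was an alternative. Scripts were tested on simulated data. Positions are from GENCODE vM1 on NCBIM37, with 97.9% of tested genes placed, and promoter sequences from RefSeq. Genes named were the 10 members, the extremes and any called gene of the other lists, Phf10, genes overlapping a member, Isl1, the partners of Baf60c and the 3 profiles closest to Smarcd3. The members and lists were chosen with earlier results of these data known. The replicate numbers occur in both groups, but same-numbered libraries did not deviate together (see the closing section). Figures were drawn with matplotlib 3.10.9 in Python 3.11.15.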

Additional observations from a re-analysis of the deposited data

How the results depend on the processing

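Smarcd3 stayed lower and past the threshold under the other size factors, filters, entry choice, robust dispersion, DESeq2 and the replicate block (edgeR adjusted p up to 0.0495), but not without a control library. Leaving out each library in turn, the genes called numbered from 28 to 6355, since with 1 Isl1_KO library only the near-identical control pair sets the error and the lone library is assumed to vary like it; calls under that setting are therefore not comparable. Over these 4 fits the log2 fold change ranged from -1.40 to -0.95 for Smarcd3, -0.96 to -0.32 for Smarca2, 0.0888 to 0.20 for Smarcd1, 0.0885 to 0.30 for Smarcd2, -0.0462 to 0.0807 for Dpf2, 0.37 to 0.55 for Dpf3, 0.0312 to 0.0783 for Arid1a, 0.0010 to 0.0560 for Smarca4 and -0.11 to -0.0076 for Arid1b. The change in the log2 ratio ranged from -1.48 to -1.15 for Smarcd3 to Smarcd1, -1.69 to -1.03 for Smarcd3 to Smarcd2, -0.96 to -0.37 for Smarca2 to Smarca4, 0.28 to 0.60 for Dpf3 to Dpf2, 0.0908 to 0.23 for Dpf1 to Dpf2 and -0.19 to -0.0379 for Arid1b to Arid1a. The Smarca2 share differed by -8.40 to -3.73 points. Other SWI/SNF subunits called numbered 0 to 9 and other ATPases 0 to 11. With no low-count filter 492 genes were called, and with DESeq2 602, of which 306 were shared with the 312. Ercc6l was the 1 other ATPase called under each of these settings. The median of the other ATPases, near 0, turned positive with no filter (0.00034), without control 2 and without Isl1_KO 1 (range over left-out libraries -0.0538 to 0.0569), and Dpf2 turned negative without Isl1_KO 1. With 10 neighbours on each side the median turned to 0.0443 around Smarcd1 and -0.0186 around Dpf1. Without division by length the Smarcd3 share differed by -10.2 points, and with errors moderated jointly, the first design of the ratio test, which was replaced after seeing the data, the Smarcd3 to Smarcd2 change of -1.36 missed the threshold (adjusted p = 0.0697 by limma). The causes were not tested.

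The replicate block gave 428 calls (290 of the 312) and changed no call among the 10 genes or the 6 ratios (Smarcd3 -1.17, adjusted p = 0.0244). Deviations of same-numbered libraries had a correlation of 0.0145 over 12715 genes, so the numbers were not taken to pair libraries.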
